A study of Sus scrofa with 36 samples.

Results

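STAT2, IRF1, BATF2, PML and UBD are 5 genes of the interferon response, 3 of them transcription factors and the others interferon targets, out of 12253 genes measured by RNA-Seq in subcutaneous adipose tissue of the pig. They were found in the table by their Ensembl pig gene IDs, and all 5 were present. The genes were chosen with earlier results of these samples in view, including how the values differed between obese and lean pigs. Differences between groups and between the sexes are therefore given for them as a description without a test.

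The 36 pigs came from an F2 intercross of Duroc sows and Göttingen minipig boars and were grouped by an Obesity Index, which was Low in 12 lean, Mean in 12 intermediate and High in 12 obese pigs. There were 5 females and 7 males among the lean pigs and 6 of each sex in both other groups, and the labels name no treatment. All were slaughtered at about the same weight, so the lean pigs were the oldest, and age and group cannot be told apart. Each pig is 1 library and 1 biological replicate, sibs and sequencing lanes were not assigned to pigs in the labels, and the replicate numbers used here are names only.

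Interferons are secreted when cells sense viruses or when T and NK cells are activated. Type I interferons signal through JAK1 and TYK2 to STAT2, which joins IRF9 and helps to switch on a large set of antiviral effector genes, whereas interferon gamma signals through JAK1 and JAK2 and raises IRF1 and the genes for antigen processing. In fat tissue these genes are expressed by adipocytes and by resident and infiltrating immune cells. In bulk tissue, more cells of a type and more RNA per cell cannot be told apart.

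Recovered reads ranged from 8735839 to 11755925 per pig, with a median of 10496910, and each gene's level is given as a normalized count, which is the reads of the gene divided by the size factor of the pig. Levels are compared between pigs and not between genes, since gene length was not used. Adipocyte markers were high in every group, with a summed normalized count of 5 genes between 27887 and 84349, and none of the 7 skeletal muscle markers was among the genes in the table.

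The data show that the 5 genes were high in a few pigs rather than in a whole group. Obese pigs 1, 2 and 3, all females, and obese pig 6, a male, had the 4 highest values of IRF1 and of BATF2 among the 36 pigs. Each of the other 8 obese pigs lay below the highest lean pig for every one of the 5 genes. The group medians differed little beside the spread within the obese group.

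STAT2 (ENSSSCG00000000396) encodes the STAT protein that is particular to type I and type III interferon signalling. Its lowest, median and highest normalized counts were 655, 848 and 1432 in lean, 792, 950 and 1268 in intermediate, and 782, 1056 and 3862 in obese pigs. Obese pig 1 had 3862, obese pig 3 had 2838 and obese pig 2 had 1545, and these 3 pigs were the ones above the highest lean pig. Obese pig 6 had 1295 and lay within the lean range. No intermediate pig was above the highest lean pig, and 2 of the 12 obese pigs were below the lean median.

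IRF1 (ENSSSCG00000014277) is the transcription factor that carries much of the interferon gamma response. Its lowest, median and highest normalized counts were 220, 259 and 386 in lean, 207, 305 and 859 in intermediate, and 174, 270 and 2157 in obese pigs. Obese pigs 1, 2, 3 and 6 had 2157, 1673, 1101 and 895, which is 8.33, 6.46, 4.25 and 3.46 times the lean median. Intermediate pigs 10 and 1 followed with 859 and 658. In all, 4 obese and 3 intermediate pigs exceeded every lean pig, while 5 obese pigs were below the lean median.

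BATF2 (ENSSSCG00000023178) encodes a basic leucine zipper factor that pairs with JUN proteins and is induced by interferons. Its lowest, median and highest normalized counts were 17.3, 33.2 and 62.1 in lean, 19.1, 30.0 and 85.6 in intermediate, and 16.4, 40.7 and 384 in obese pigs. The gene is low in most pigs, at 16 reads in the pig with the fewest, so its lower values carry more counting error than those of the other genes. Obese pigs 1, 3, 2 and 6 had 384, 316, 293 and 128 normalized counts, and intermediate pig 1 was the only other pig above the lean range. The remaining 8 obese pigs had between 16.4 and 45.2, with a median of 23.7.

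PML (ENSSSCG00000001912) encodes the scaffold of PML nuclear bodies, which grow in number and size upon interferon. Its lowest, median and highest normalized counts were 157, 259 and 387 in lean, 150, 223 and 555 in intermediate, and 119, 240 and 1007 in obese pigs. Only obese pigs 3 and 1, with 1007 and 985, and intermediate pig 1, with 555, were above the highest lean pig. Obese pigs 2 and 6 had 371 and 344 and lay within the lean range, and 7 of 12 obese pigs were below the lean median.

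UBD (ENSSSCG00000001252) encodes FAT10, a ubiquitin-like modifier that marks proteins for the proteasome and is induced by interferon gamma and tumour necrosis factor. Its lowest, median and highest normalized counts were 123, 172 and 417 in lean, 68.9, 145 and 3237 in intermediate, and 58.8, 244 and 2086 in obese pigs. The highest value of all 36 pigs was in intermediate pig 10, at 18.9 times the lean median. Obese pigs 2, 1 and 3 followed with 2086, 1642 and 883, and obese pig 6 with 371 did not exceed the highest lean pig. The lowest UBD value was also in an obese pig, so the obese group spanned both ends of the lean range.

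**Figure D1:**
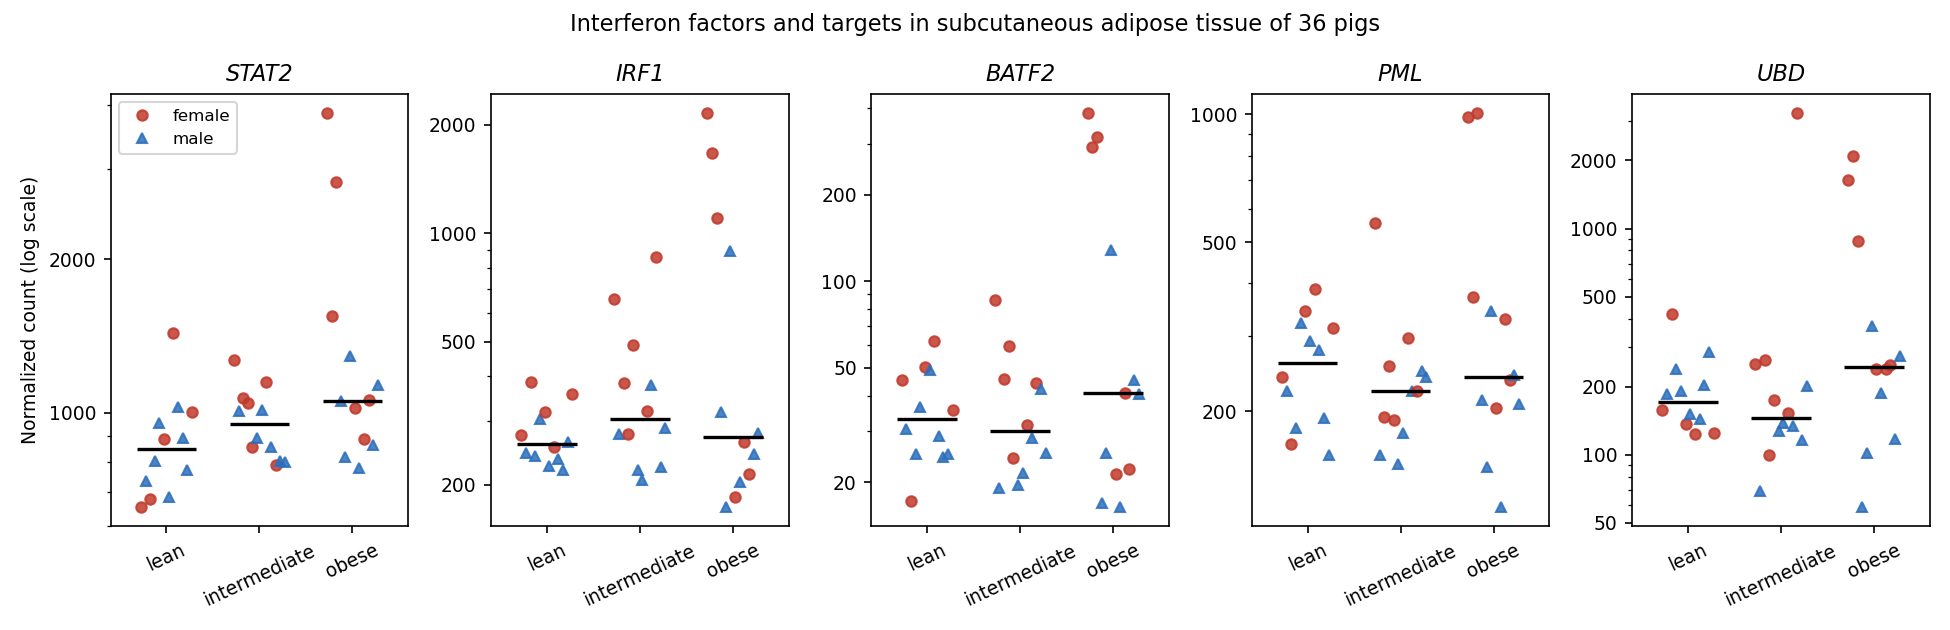
Normalized count of each gene (log scale) in each of the 36 pigs by group, with females as red circles, males as blue triangles and the group median as a black line (12 pigs per group). The medians lie close together, while obese pigs reach 3862 for STAT2, 2157 for IRF1, 384 for BATF2 and 1007 for PML, and the highest UBD value, 3237, is in an intermediate pig.

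The spread within the obese group was wide for all 5 genes. The SD of the log2 values in obese pigs was 4.86 times that in lean pigs for IRF1, 3.18 times for UBD, 3.08 times for BATF2, 2.48 times for STAT2 and 2.11 times for PML. Over all genes the median of this ratio was 0.953, and the 5 genes ranked 5, 28, 32, 97 and 213 of 12253. These ratios are a description, since they come from the pigs that were in view when the genes were chosen.

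The log2 difference of obese minus lean, adjusted for sex, was 0.50 (SE 0.181) for STAT2, 0.54 (SE 0.316) for IRF1, 0.67 (SE 0.410) for BATF2, 0.17 (SE 0.242) for PML and 0.62 (SE 0.452) for UBD (12 lean and 12 obese pigs). As background, limma called 5 of 12253 genes (0.0408%) in this contrast at an adjusted p of 0.05, from which nothing is read for the 5 genes. Single pigs moved the difference by over 1.5 times for 3 genes. It fell to 0.36 for IRF1 without obese pig 1 and to 0.41 for UBD without obese pig 2. For PML it ran from 0.03 without obese pig 3, 0.04 without obese pig 1 and 0.07 without lean pig 3 to 0.26 without obese pig 7 and 0.27 without obese pig 8. Without obese pigs 1, 2, 3 and 6 the differences were 0.11 (SE 0.113) for STAT2, -0.26 (SE 0.183) for IRF1, -0.35 (SE 0.258) for BATF2, -0.30 (SE 0.190) for PML and -0.18 (SE 0.414) for UBD. Leaving out these pigs, which were picked for their BATF2 values, lowers the obese values by construction, and it turned the sign of 4 of the 5 genes. By sex, the difference for UBD was 1.74 (SE 0.794) in females and -0.32 (SE 0.332) in males, and that for BATF2 was 1.22 (SE 0.738) in females and 0.20 (SE 0.369) in males. STAT2, at 0.77 (SE 0.344) and 0.25 (SE 0.125), and IRF1, at 0.84 (SE 0.588) and 0.29 (SE 0.262), were positive in both sexes, and PML was 0.55 (SE 0.423) in females and -0.16 (SE 0.228) in males.

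**Figure D2:**
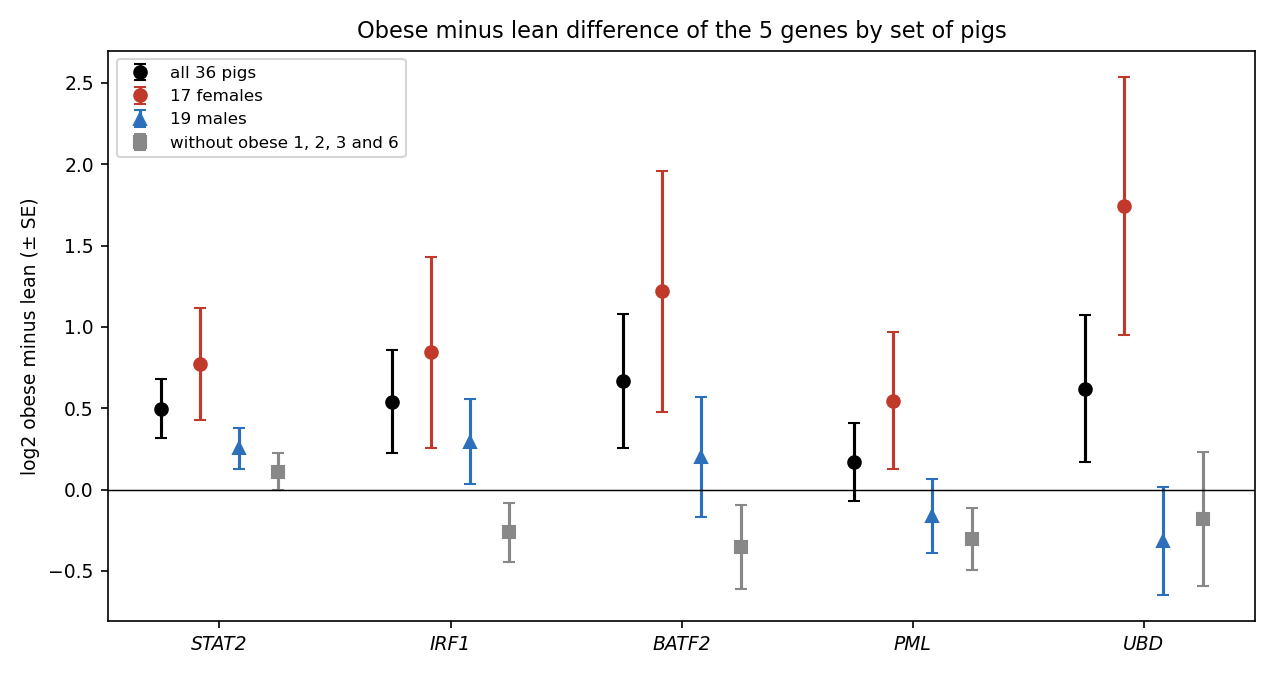
Log2 difference of obese minus lean (y axis) of each gene with its standard error, in all 36 pigs, in females, in males, and without obese pigs 1, 2, 3 and 6. The difference in females is above that in males for each gene, and without the 4 pigs only STAT2 remains above 0, at 0.11.

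Which measured values led to the choice of the genes is not known in full. The contrast of intermediate pigs against the mean of lean and obese pigs includes the obese values that were in view, so for the 5 genes it is a description without a test. The estimates ran from -0.43 (SE 0.354) for BATF2 to -0.0043 (SE 0.273) for IRF1 on the log2 scale. No gene of the table was called in this contrast by limma, 749 (6.11%) had an unadjusted p under 0.05, and the count stayed at 0 with voom weights.

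The difference between the sexes is a description for the 5 genes as well, since the high values of obese pigs 1, 2 and 3, all females, were in view when the genes were chosen. All 5 had a lower median in the 19 males than in the 17 females. STAT2 had a median of 867 in males and 1045 in females, and the highest male value was 1295. The medians were 244 and 358 for IRF1, 25.2 and 45.2 for BATF2, 212 and 298 for PML, and 151 and 239 for UBD. The ranges of the sexes overlapped for every gene, with the lowest female within the male range for 4 of the 5 genes and below it for STAT2.

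The log2 difference of male minus female, adjusted for group, was -0.35 (SE 0.148) for STAT2, -0.73 (SE 0.259) for IRF1, -0.88 (SE 0.335) for BATF2, -0.62 (SE 0.198) for PML and -1.00 (SE 0.370) for UBD. Over all genes 268 (2.19%) were called between the sexes, a count that ran from 147 without obese pig 1 to 546 without lean pig 1. The difference was fitted again without obese pigs 1, 2, 3 and 6 and was then -0.13 for STAT2, -0.41 for IRF1, -0.45 for BATF2, -0.39 for PML and -0.60 for UBD on the log2 scale. The estimates stayed negative and were smaller for each gene.

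The difference of obese minus lean between males and females uses the same obese and lean values, so it is given as a description too. Males minus females, it was -2.06 (SE 0.862) on the log2 scale for UBD, -1.02 (SE 0.829) for BATF2, -0.71 (SE 0.483) for PML, -0.55 (SE 0.646) for IRF1 and -0.52 (SE 0.361) for STAT2. Without obese pigs 1, 2, 3 and 6 it was -0.94 for UBD and -0.03 for PML, and it turned to 0.48 for BATF2, 0.64 for IRF1 and 0.17 for STAT2.

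The pigs with high values did not share one profile, as the other genes of the pathway show. The lists hold 128 genes, of which 78 were in the table, and they were written with earlier results of these data known. In obese minus lean, 0 of the 78 genes passed the correction by limma, 8 (10.3%) were higher and 2 (2.56%) lower at an unadjusted p under 0.05, against 6.81% and 7.88% of all genes. The median log2 difference was 0.10 over the 78 genes and -0.01 over all genes. It was 0.02 without obese pig 1 or obese pig 3, 0.04 without lean pig 3, 0.06 without obese pig 6 or obese pig 2, and it stayed above 0 without any single pig. It was 0.24 in females alone, with 58 of 78 genes positive, and turned to -0.05 in males alone, with 32 positive. Without lean pig 2, IRF5 and PTPN6 passed the correction, and 292 genes of the table did so.

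The antiviral effector genes, which block viral entry, translation and RNA, are the largest list, with 24 of 35 genes in the table. Their median log2 difference of obese minus lean was 0.07, and 14 of 24 were positive. Each of the 24 had its highest value in obese pig 1 (12 genes) or obese pig 3 (12 genes), whereas over all genes obese pigs 1, 2, 3 and 6 together held the highest value for 13.4%. In obese pig 1 the median gene of the list was 4.36 times its lean median and 24 of 24 were above the highest lean pig, and in obese pig 3 it was 4.26 times and 23 of 24. Over all genes, 10.7% and 10.1% were above the highest lean pig in these animals. OAS2, an RNA sensor that activates RNase L, had a lean median of 1060 and reached 9880 and 11576 in obese pigs 1 and 3.

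Obese pigs 2 and 6 had high IRF1 and BATF2 with lower effector genes than obese pigs 1 and 3. The median effector gene was 1.59 times its lean median in obese pig 2, with 11 of 24 above the highest lean pig, where 11.1% of all genes were. In obese pig 6 it was 1.16 times, and 2 of 24 (8.33%) were above the highest lean pig, against 9.79% of all genes. In intermediate pig 1 the summed level of these genes ranked 3 of 36, with 17 of 24 above the highest lean pig, against 7.22% of all genes. In intermediate pig 10, the pig with the highest UBD value, the median effector gene was at 0.697 of its lean median. High UBD and IRF1 thus occurred in a pig with the lowest STAT2 of its group (792), with 224 for PML and with 2 of 24 effector genes above the highest lean pig, against 6.53% of all genes. In the same pig 3 of 5 interferon gamma-induced genes, at a median of 1.82 times the lean median, and 3 of 6 T or NK cell markers, at a median of 2.89 times, were above the highest lean pig. The interferon gamma-induced antigen processing genes had a median of 1.08 times there, with 1 of 5 above the highest lean pig.

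The interferon gamma-induced antigen processing genes had 5 of 12 genes in the table, and all 5 were highest in obese pig 1, 2, 3 or 6. Their summed normalized count was 4915, 4387, 4111 and 2956 in obese pigs 1, 2, 3 and 6, in ranks 1 to 4 of 36, while the lean pigs lay between 1497 and 2231. Obese pig 2 had all 5 genes above the highest lean pig, against 11.1% of all genes, at a median of 2.16 times the lean median. Of the list, TAP2, which pumps peptides into the endoplasmic reticulum, had a log2 difference of 0.63 (SE 0.274) and an adjusted p of 0.267. ERAP1, which trims those peptides, had 0.36 (SE 0.178) and an adjusted p of 0.339.

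The other interferon gamma-induced genes had 5 of 10 in the table and followed the same order of pigs. Their summed level was 5283, 3900, 3124 and 2530 in obese pigs 1, 2, 3 and 6, against a lean range of 1221 to 1891. GBP2, a guanylate-binding protein, was 2624 and 1780 in obese pigs 1 and 2 against a lean median of 322. WARS1, a tryptophanyl-tRNA synthetase, had a log2 difference of 0.33 (SE 0.166) and ICAM1, an adhesion molecule, one of -0.31 (SE 0.188), with adjusted p-values of 0.358 and 0.463.

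Among the STAT factors, STAT3, which mainly carries cytokine signals of the interleukin family, was highest in obese pig 6, at 3448, against a highest lean value of 2169. STAT3 and STAT5B, the 2 with the smallest p of that list, had log2 differences of 0.19 (SE 0.116) and -0.12 (SE 0.078).

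Of the IRF factors other than IRF1, with 4 of 8 in the table, IRF5 and IRF2 were higher in obese pigs at an unadjusted p under 0.05. Their log2 differences were 0.79 (SE 0.266) and 0.24 (SE 0.0949), and their adjusted p-values were 0.136 and 0.209. IRF5 is mainly a factor of myeloid cells, and IRF2 binds the same motif as IRF1. The highest IRF5 value was in lean pig 2.

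Of the receptors and kinases, 4 of 9 genes were in the table. JAK2 was highest in obese pig 4, at 321, and the obese median of 177 was above the highest lean pig (171), with 182, 178, 154 and 295 in obese pigs 1, 2, 3 and 6. IFNGR1, a subunit of the interferon gamma receptor, was highest in intermediate pig 2, at 1126, with 838, 996, 1029 and 834 in obese pigs 1, 2, 3 and 6 and a highest lean value of 920. The log2 differences were 0.40 (SE 0.151) for JAK2 and -0.15 (SE 0.0582) for TYK2, with adjusted p-values of 0.198 and 0.193. The NF-kappaB factors and inhibitors, with 8 of 9 in the table, had summed levels of 3689 to 4293 in obese pigs 1, 2, 3 and 6, within the lean range of 3374 to 4426. By gene, 2, 2, 3 and 0 of the 8 were above the highest lean pig in obese pigs 1, 2, 3 and 6. Over all genes the shares in these pigs were 10.7%, 11.1%, 10.1% and 9.79%, and with 8 genes nothing is read from the counts. In that list REL had a log2 difference of 0.56 (SE 0.221) and NFKBIB one of 0.13 (SE 0.0782), with adjusted p-values of 0.209 and 0.457.

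Of the list of BATF partners and AP-1 factors, 3 of 9 were in the table, namely JUNB, FOS and FOSL1. None of them was highest in obese pig 1, 2, 3 or 6. FOS and JUNB had log2 differences of -0.80 (SE 0.490) and 0.11 (SE 0.245), and lean pig 3 had the highest value of both. Of the partners of PML in nuclear bodies, with 6 of 10 in the table, SP110 had a log2 difference of 0.31 (SE 0.124) and an adjusted p of 0.220, with 771 and 702 in obese pigs 1 and 3 against a highest lean value of 448. ATRX, a chromatin remodeller, had 0.17 (SE 0.117). Of the 6 genes, 3 were above the highest lean pig in obese pig 1 and 2 in obese pig 3, the pigs in which PML was highest. Over all genes the shares were 10.7% and 10.1%.

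The ubiquitin-like modifier genes other than UBD, with 8 of 9 in the table, belong mostly to the ISG15 pathway. Their summed level was 17641 and 16847 in obese pigs 1 and 3, and 6794 and 5372 in obese pigs 2 and 6, with lean pigs between 3672 and 7477. UBE2L6, the conjugating enzyme for ISG15, had 4524 and 4433 in obese pigs 1 and 3 and a lean median of 577. UBA6 and NUB1, which act on FAT10 itself, had log2 differences of 0.16 (SE 0.124) and 0.10 (SE 0.110), with adjusted p-values of 0.564 and 0.724. In obese pig 2, where UBD was high, UBE2L6 (1618) and UBA7 (1364) were above the highest lean pig as well. That is 2 of 8 genes, against 11.1% of all genes. In intermediate pig 10, with the highest UBD, 0 of the 8 were, against 6.53% of all genes.

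Of the negative regulators of STAT signalling, with 7 of 11 in the table, PTPN6 was higher and PIAS3 lower in obese pigs at an unadjusted p under 0.05. The log2 differences were 0.65 (SE 0.213) and -0.18 (SE 0.0698), with adjusted p-values of 0.129 and 0.208. PTPN6 is a phosphatase of blood cells. In the effector list, the genes with the smallest p were TAPBPL, at 0.16 (SE 0.0948), and IFIT2, at 0.33 (SE 0.272), with adjusted p-values of 0.427 and 0.608.

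Without obese pigs 1, 2, 3 and 6, which again lowers the obese values by construction, the median log2 difference over the 78 genes was -0.19. At an unadjusted p under 0.05, 2 genes were then higher and 25 (32.1%) lower in obese pigs, against 8.81% of all genes that were lower, and 0 passed the correction by limma. The median over the effector genes was -0.45.

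**Figure D3:**
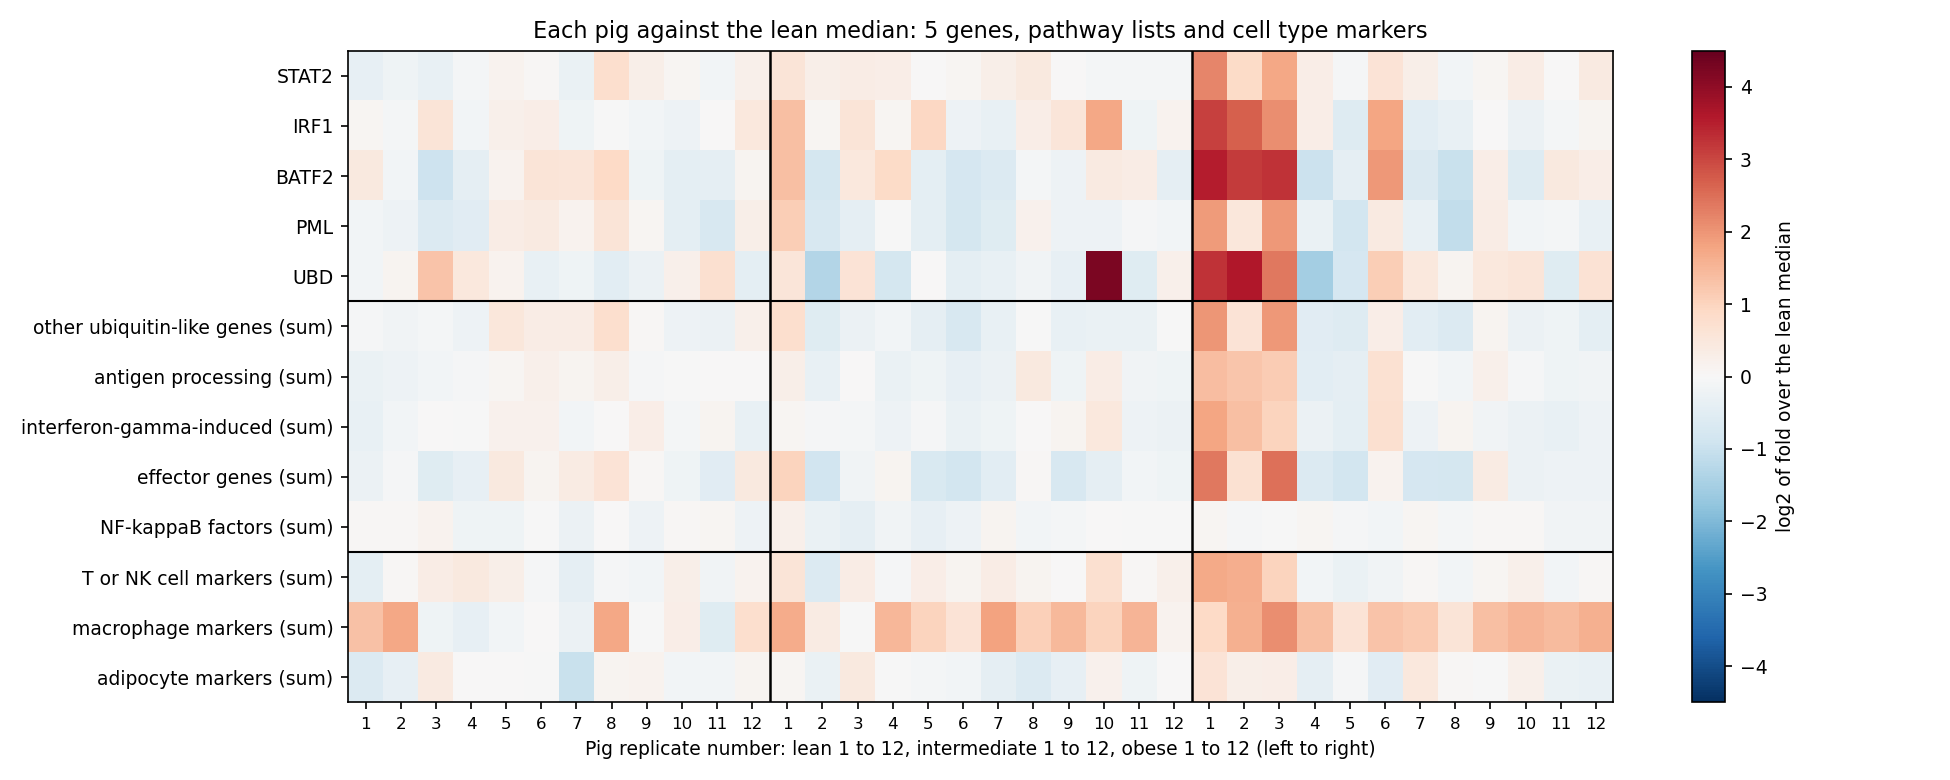
Log2 of the fold over the lean median (colour) for the 5 genes, the summed level of 5 pathway lists and the summed level of 3 cell type marker lists (rows) in each of the 36 pigs (columns, lean, intermediate and obese from left to right). Obese pigs 1 and 3 are raised across the interferon rows, obese pigs 2 and 6 in IRF1, BATF2, UBD, antigen processing and interferon gamma-induced genes, with T or NK cell markers raised in obese pig 2 and not in obese pig 6, and intermediate pig 10 is most raised in UBD and IRF1, with T or NK cell markers and interferon gamma-induced genes raised less.

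Of the 78 pathway genes, 69 had lower estimates in males, 35 (44.9%) at an unadjusted p under 0.05, against 10.3% of all genes, and the median log2 difference was -0.26. The effector genes were lower in males in 24 of 24, against 6403 of 12253 over all genes, with a median of -0.63. Each of the 24 was highest in obese pig 1 or 3, both females. The lists were written with earlier results of these data known, so the counts and adjusted p-values of this comparison are a description. The genes ERAP1 at -0.54 (SE 0.146, adjusted p = 0.0411), IFIT2, which binds viral RNA, at -0.82 (SE 0.223, adjusted p = 0.0439) and TAPBPL at -0.33 (SE 0.0776, adjusted p = 0.0170) passed the correction by limma. With each pig left out in turn, between 1 and 11 genes passed, 11 without obese pig 7, and TAPBPL passed each time. In lean and obese pigs alone 0 of the 78 passed by limma, with 24 lower and 1 higher in males at an unadjusted p under 0.05. Without obese pigs 1, 2, 3 and 6, 67 of 78 were lower in males, 21 (26.9%) of them at an unadjusted p under 0.05 against 5.45% of all genes, and 0 passed the correction.

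Markers of immune cells moved with the 5 genes in part. Of the T or NK cell markers, 6 of 11 were in the table, and all 6 were above the highest lean pig in each of obese pigs 1, 2 and 3. Over all genes, 10.7%, 11.1% and 10.1% were above it in these pigs. CD8A, a marker of cytotoxic T cells, was 516, 405 and 104 there against a lean median of 33.0. In obese pig 6 none of the 6 was above the highest lean pig, and the summed level ranked 32 of 36. The summed level was 635 to 1156 in lean, 558 to 1415 in intermediate and 692 to 2809 in obese pigs. These markers were also lower in males in 6 of 6, with a median of -0.92. Adipocyte markers were lower in males in 5 of 5, 4 at an unadjusted p under 0.05 and 2 past the correction, with a median of -0.33. Fibroblast or progenitor markers had a median of 0.63, higher in males, with 2 of 6 past the correction. Over all genes, 6403 of 12253 were lower in males, and 10.3% were so at an unadjusted p under 0.05. In either direction 2.19% of all genes passed the correction. The part of these cells in the results on the 5 genes was not tested.

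Macrophage markers showed another pattern. All 6 of the 10 markers that were in the table were higher in obese pigs at an unadjusted p under 0.05, against 6.81% of all genes. None passed the correction. Their median log2 difference was 0.77, and 0.75 without obese pigs 1, 2, 3 and 6. Their summed level ranked 21, 6, 1 and 16 of 36 in obese pigs 1, 2, 3 and 6. The fibroblast or progenitor markers, with 6 of 7 in the table, had their 2 lowest summed levels in obese pigs 2 and 1. In obese pigs 1, 2, 3 and 6 the adipocyte sum ranked 1, 6, 5 and 33 of 36. The sum of the endothelial cell markers, with 3 of 7 in the table, ranked 22, 9, 36 and 15. CD22 for B cells and CD83 for dendritic cells were the only markers of their lists in the table, so those cells were not assessed further.

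The 5 genes were compared with each other within groups, after group and sex means were removed. Obese pigs 1, 2, 3 and 6 stand apart from the rest and were in view when the genes were chosen, so no result over all 36 pigs is given. Within the 24 lean and intermediate pigs, 3 of 10 pairs passed a two-sided permutation test with 100000 resamples at an adjusted p of 0.05. This set and those below were taken after the values were seen, and the genes were chosen with lean values in view. The permutation also treats pigs as independent, though sibs could not be assigned. The p-values for pairs are therefore a description. BATF2 and PML had a Pearson r of 0.79 and a Spearman rho of 0.70 (permutation adjusted p = 1e-04 for r, the smallest that the resamples allow after adjustment, and 0.0019 for rho), and r was 0.65 without the 2 pigs farthest from the BATF2 median. IRF1 and UBD had an r of 0.72 and a rho of 0.55 (permutation adjusted p = 0.0023 and 0.0330), and r was 0.49 without the 2 farthest pigs. STAT2 and PML had an r of 0.50 and a rho of 0.46 (permutation adjusted p = 0.0461 and 0.0880), and r was 0.36 without the 2 farthest pigs, so this relation rests on few animals.

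Of the other 7 pairs, none passed in these pigs. IRF1 had an r of 0.05 with BATF2, 0.12 with PML and -0.31 with STAT2 (permutation adjusted p = 0.828, 0.734 and 0.231). UBD had an r of -0.45 with STAT2, -0.21 with PML and -0.07 with BATF2 (permutation adjusted p = 0.0772, 0.459 and 0.812). STAT2 and BATF2 had an r of 0.32 (permutation adjusted p = 0.231). In these 24 pigs the pairs that passed for both r and rho were BATF2 with PML and IRF1 with UBD.

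In the 12 lean pigs alone, a set also taken after the values were seen, UBD ran opposite to PML, BATF2 and STAT2. The r was -0.84 for PML and UBD (rho -0.76, permutation adjusted p = 0.00125 and 0.0303) and -0.78 for BATF2 and UBD (rho -0.73, permutation adjusted p = 0.0138 and 0.0325). Without the 2 farthest pigs r was -0.65 and -0.51. STAT2 and UBD had an r of -0.70 (rho -0.64, permutation adjusted p = 0.0356 and 0.0734), and -0.47 without the 2 farthest pigs. STAT2 and PML had an r of 0.64 (rho 0.57, permutation adjusted p = 0.0460 and 0.111), and 0.44 without the 2 farthest pigs. Neither pair with STAT2 passed on rho. BATF2 and PML had an r of 0.85 (rho 0.84, permutation adjusted p = 0.00125 and 0.0115). IRF1 and UBD did not pass in the lean pigs, with an r of 0.43 and a rho of 0.27 (permutation adjusted p = 0.232 and 0.591). In the 12 intermediate pigs alone, the r of PML and UBD was -0.05 and that of BATF2 and UBD 0.07, with a permutation adjusted p of 0.880 for each. That of STAT2 and UBD was -0.56 (permutation adjusted p = 0.124). BATF2 and PML had an r of 0.73 there (permutation adjusted p = 0.0332), but rho was 0.69 with an adjusted p of 0.174, and r was 0.44 without the 2 farthest pigs. IRF1 and UBD also had an r of 0.73 (permutation adjusted p = 0.0332), but rho was 0.55 with an adjusted p of 0.324, and r was 0.22 without the 2 farthest pigs. Neither pair passed on rho, and both rest on few animals. The difference between the groups in these coefficients was not tested.

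**Figure D4:**
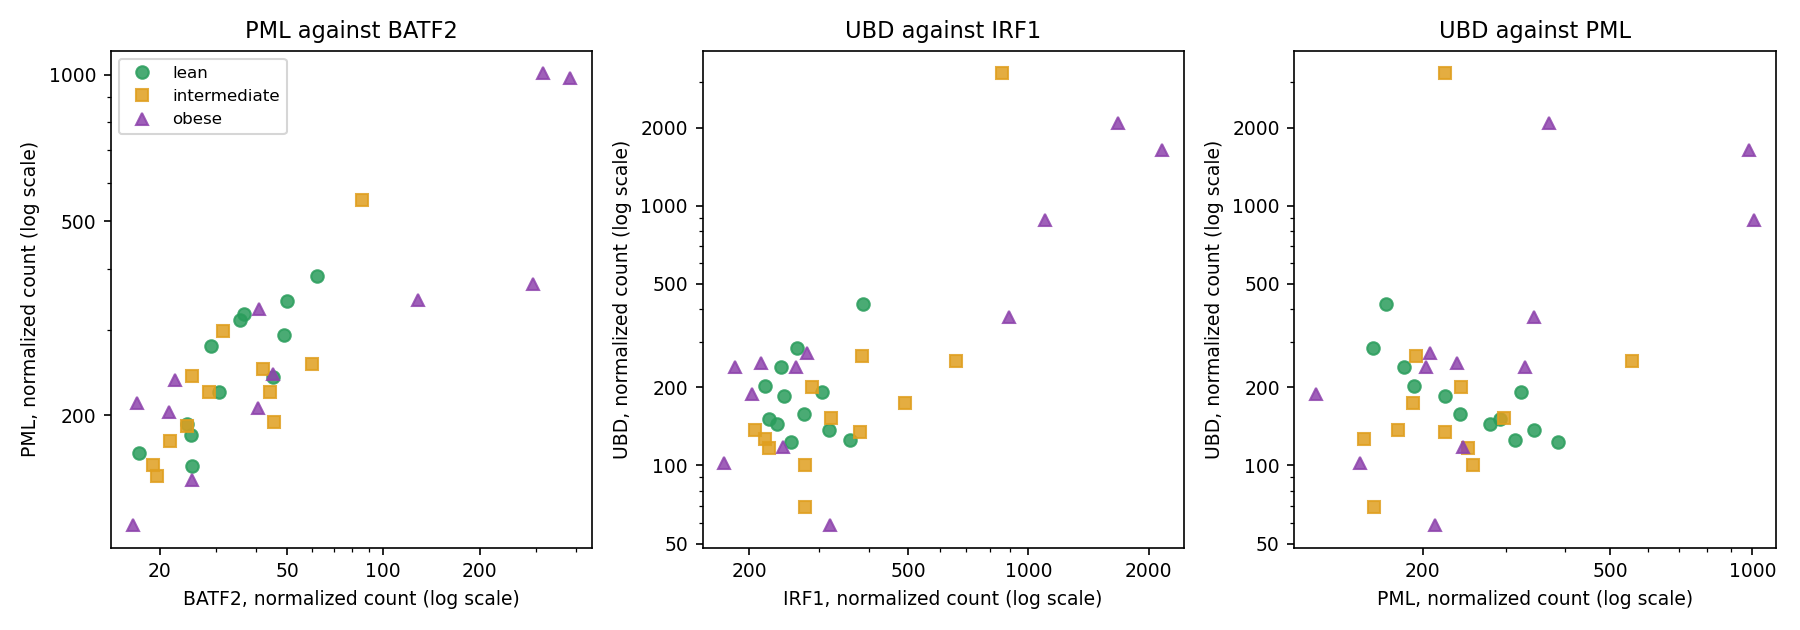
Normalized counts (both axes on log scales) of PML against BATF2, UBD against IRF1 and UBD against PML, with 1 point per pig for 12 lean (green circles), 12 intermediate (orange squares) and 12 obese pigs (purple triangles). PML rises with BATF2 among the lean pigs, whereas UBD falls as PML rises among the lean pigs and not among the intermediate pigs.

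The genes of the table whose residuals were most like each of the 5 over 36 pigs are given as a description, since the high pigs enter these coefficients. For STAT2 they included ZBP1 (r 0.89), ZNFX1 (0.87) and IFIT5 (0.86). The genes nearest to BATF2 included UBE2L6 (0.91), ETV7 (0.89) and IFIT1 (0.88). PML was nearest to OAS2, IFIT1, UBE2L6, HERC5 and IRF9, all at 0.93.

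IRF1 and UBD had other neighbours. IRF1 was nearest to GBP2 (0.91), to 3 genes without a symbol and to PSME2 (0.82), a proteasome activator subunit. UBD had CD8A (0.78) and MRM1 (0.75) among its 5 nearest genes, and 3 without a symbol. Among the genes without a symbol, ENSSSCG00000006919 was among the 5 nearest of both IRF1 (0.89) and UBD (0.80). So was ENSSSCG00000006924, at 0.89 with IRF1 and 0.76 with UBD. These coefficients differed in the 24 lean and intermediate pigs. The r of IRF1 was 0.23 with PSME2 and 0.34 with ENSSSCG00000021815, another of its neighbours without a symbol (0.85 over 36 pigs), whereas it was 0.76 for UBD with CD8A and 0.88 for PML with IFIT1.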

How the data were processed

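RNA-Seq was done on subcutaneous adipose tissue of 36 pigs. Per the methods and labels, paired-end reads were aligned by STAR to the Sscrofa10.2 build and assigned to genes by HTSeq. The authors then dropped weakly expressed genes and passed DESeq size factors to voom of limma. The deposited values are log2 values, which the authors describe as normalized. They lie on steps of whole reads when read as the log2 of reads plus 0.5 over the size factor plus 1, and at least 99.85% of the values of each pig came out whole within 0.1 reads. Read totals therefore count recovered reads, 8735839 to 11755925 per pig. The correction for sex described in the methods was not seen in these values, so sex was a term in the fit.

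Symbols were matched by gene ID for 8320 of 12253 genes. Tests used limma 3.58.1 in R 4.3.3 with an intensity trend on the log2 values, a model of group plus sex, and Benjamini-Hochberg adjustment over all genes, and were tested on simulated data. Correlations used residuals in Python 3.11.15 with numpy 2.4.6. The genes and lists were chosen with earlier results of these data known. The rule for naming took the 5 genes, list genes called at an adjusted p of 0.05 or else the 2 of smallest p per list, and the 5 nearest genes of each; CD8A, CD22, CD83, IFNGR1, UBA7 and the pigs singled out were chosen after their values were seen. Alternatives left out the sex term, the trend, low genes, single pigs, 1 sex or the intermediate group, or changed the scaling or weights. Lanes, sibs, phenotypes per pig and genome positions were not used here. Results on 1 further gene of the lists are not reported here.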

Additional observations from a re-analysis of the deposited data

How the results depend on the processing

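Genes called for obese minus lean numbered 5, and 3 without the sex term, 12 without the trend, 1 without the lowest 25% of genes, 9 with each pig's median subtracted, 8 with voom weights, 17 in lean and obese pigs alone, 9 with the whole size factor and 0 without obese pigs 1, 2, 3 and 6. All 5 were lower in obese pigs, whereas females alone gave 21, 18 of them higher, and males alone gave 2, both lower. Fits that dropped a single pig gave counts from 1 (without lean pig 3) to 292 (without lean pig 2), so few statements can rest on it. Genes called between the sexes fell from 268 to 61 without the 4 obese pigs, and numbered 147 to 546 when a single pig was dropped. The 1 gene called for the sex difference in obese minus lean became 2 without the trend and 0 with the median subtracted, with voom weights, with the whole size factor or without the 4 pigs.

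For the 5 genes, the sign of obese minus lean turned without the 4 pigs in IRF1 (-0.26), BATF2 (-0.35), PML (-0.30) and UBD (-0.18), and in males alone in PML (-0.16) and UBD (-0.32). Without the 4 pigs, the sex difference in obese minus lean turned in STAT2 (0.17), IRF1 (0.64) and BATF2 (0.48). The cause was not tested. Leaving out any single pig turned no sign of obese minus lean or of male minus female among the 5 genes, but PML fell from 0.17 to 0.03 without obese pig 3, IRF1 from 0.54 to 0.36 without obese pig 1 and UBD from 0.62 to 0.41 without obese pig 2.

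IRF1 with UBD did not pass on rho without the 4 pigs (adjusted p = 0.251). Pairs that passed numbered 3 in lean and intermediate pigs, 5 in lean pigs, 2 in intermediate pigs and 3 without the 4 obese pigs. The whole size factor, the 4 pigs and the groups used for pairs were chosen after seeing the data. No paired analysis was made, since the groups hold different pigs and the labels do not assign sibs.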
